A study of Mus musculus with 16 samples.

Results

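The 9 genes described here are Tgfb2, Axl, Crim1, Nt5e, Myof, Ptpn14, Fjx1, Ankrd1 and Gadd45a, which are widely used as targets of the transcriptional coactivators YAP and TAZ. They were picked by symbol, as targets known from cell types other than brain endothelium, and make up 9 of the 37003 genes in the table of counts. All 9 passed the filter on low counts, together with 31085 genes in all. Their RNA was measured in brain endothelial cells (bECs) with and without YAP and TAZ, after sham surgery and after stroke.

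YAP and TAZ are held in the cytoplasm by the kinases of the Hippo pathway and, once released, enter the nucleus and bind TEAD transcription factors, which carry them to their target genes. The targets differ between cell types, and several of them feed back on the pathway. In blood vessels the pathway is known for its response to cell density, stretch and flow and for its part in vessel growth.

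Cells were sorted as DAPI-, CD45- and CD31+, which selects living cells with an endothelial surface protein and without one of leukocytes. Mice had sham surgery or a 30-minute closure of the middle cerebral artery (MCAo), and RNA was taken 72 hours later. There were 4 libraries in each of 4 groups, and each library was made from brain tissue pooled from several adult mice. Mice of both sexes were used in the study. YT-iKO mice carried 1 copy of the transgene Pdgfb-iCreER-eGFP (Tg/+) with Yap fl/fl and Taz fl/fl. Their CTRL littermates carried both floxed genes without the transgene, and all mice of all groups received tamoxifen before surgery. Cre activity depended on the Pdgfb promoter, so the deletion was limited to cells in which that promoter was active. Groups are named by genotype and surgery, as in CTRL sham.

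Libraries held 11418262 to 23074547 counts. Levels are given in CPM, the counts of a gene scaled to the library's total and its TMM factor from edgeR, which is set from all genes tested unless stated otherwise. Yap1 had 111.1 to 112.4 CPM in CTRL sham and 38.6 to 59.2 CPM in YT-iKO sham, and 80.5 to 132.6 CPM in CTRL MCAo against 37.1 to 63.0 CPM in YT-iKO MCAo. Wwtr1, which encodes TAZ, had 252.6 to 275.7 CPM in CTRL sham and 45.0 to 95.9 CPM in YT-iKO sham, and 234.5 to 437.6 against 60.7 to 136.4 CPM after MCAo. The genotypes did not overlap for either gene. These counts cover all exons, deleted or not. The 8 endothelial markers led by Flt1 summed to 8830 to 18500 CPM, and mural markers to 432 to 1230 CPM. In bulk RNA, fewer cells of a type and less RNA per cell cannot be told apart.

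The libraries differed in an even background of reads. On 1299 olfactory, vomeronasal and taste receptor genes it ran from 0.0219 CPM per kilobase of exon in YT-iKO MCAo replicate 4 to 0.549 in YT-iKO MCAo replicate 2. This density was scaled to the library's total without TMM factors. The background was above 0.3 in 5 libraries, which were CTRL MCAo replicates 2 and 3, YT-iKO sham replicate 3, and YT-iKO MCAo replicates 2 and 3. It did not differ detectably between the groups compared (exact two-sided permutation tests over 70 assignments, p = 0.429 and 0.743 between genotypes after sham and MCAo, p = 0.4 and 0.971 between MCAo and sham in the CTRL and YT-iKO genotypes). TMM factors ran from 0.743 to 1.40 and followed the logarithm of the background across the 16 libraries (Pearson r = 0.909), while factors set from the 9132 genes averaging 10 CPM or more ran from 0.938 to 1.04 (r = 0.109). Because r describes factors and background from the same counts, no p is given. Results are therefore given on the first of these scales, called the all-gene scale, with values on the second, the abundant-gene scale, beside them. The change of scale moved the median log2 fold change of all genes by 0.19 and 0.05 between genotypes after sham and MCAo, and by 0.14 and 0 between MCAo and sham in the CTRL and YT-iKO genotypes.

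Promoters were read to show which members carry the core of the TEAD motif close to their start site. RefSeq's table of promoters on GRCm38.p6, which gives 250 bases before and 50 after each start site, held 8 of the 9 members and not Fjx1. The letters CATTCC, searched on both strands and so also as GGAATG, were found in 4 of the 8, in Ankrd1, Axl, Crim1 and Ptpn14, against 4817 of 32851 promoters of the same length (14.7%). The AP-1 motif TGANTCA was in 0 of the 8 and in 7.81% of all promoters. With no AP-1 match, the 2 motifs do not overlap in these windows. In Ankrd1 the first bases of its 2 matches lay 210 and 123 bases upstream of the start site. In Axl the match began 233 bases upstream, in Crim1 79 and in Ptpn14 146. The 4 sequences with a match are shown because Crim1 and Ptpn14 gave the clearest differences between genotypes and Ankrd1 and Axl did not. The Myof promoter, without a match, is shown because Myof gave the largest log2 fold change between MCAo and sham by edgeR, in YT-iKO. Each is written 5′ to 3′ on the strand of its gene, with the match in capitals. The windows are chr17:78199998-78200297 on the plus strand for Crim1 and chr1:189728018-189728317 on the plus strand for Ptpn14. On the minus strand they are chr19:36119795-36120094 for Ankrd1, chr7:25788684-25788983 for Axl and chr19:38043528-38043827 for Myof.
Crim1: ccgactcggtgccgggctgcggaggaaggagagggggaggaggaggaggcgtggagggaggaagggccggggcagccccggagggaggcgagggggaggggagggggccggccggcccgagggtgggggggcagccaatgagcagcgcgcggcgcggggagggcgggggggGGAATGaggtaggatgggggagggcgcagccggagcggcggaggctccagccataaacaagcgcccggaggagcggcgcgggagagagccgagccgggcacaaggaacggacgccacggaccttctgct
Ptpn14: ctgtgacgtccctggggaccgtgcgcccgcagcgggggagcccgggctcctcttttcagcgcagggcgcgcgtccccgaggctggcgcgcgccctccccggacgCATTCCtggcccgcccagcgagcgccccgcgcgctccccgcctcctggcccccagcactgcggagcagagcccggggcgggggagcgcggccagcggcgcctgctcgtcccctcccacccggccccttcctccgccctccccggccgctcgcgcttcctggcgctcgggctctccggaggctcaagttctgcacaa
Ankrd1: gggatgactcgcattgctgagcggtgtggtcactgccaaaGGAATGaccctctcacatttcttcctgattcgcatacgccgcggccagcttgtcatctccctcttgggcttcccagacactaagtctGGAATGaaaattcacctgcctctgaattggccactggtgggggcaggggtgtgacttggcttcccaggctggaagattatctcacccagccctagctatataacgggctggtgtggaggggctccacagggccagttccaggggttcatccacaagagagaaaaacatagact
Axl: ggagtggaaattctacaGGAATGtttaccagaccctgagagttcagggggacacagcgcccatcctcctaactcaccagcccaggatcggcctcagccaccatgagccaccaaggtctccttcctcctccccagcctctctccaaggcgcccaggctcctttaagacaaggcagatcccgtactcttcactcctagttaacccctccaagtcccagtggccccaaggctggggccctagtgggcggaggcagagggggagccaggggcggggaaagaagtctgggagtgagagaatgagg
Myof: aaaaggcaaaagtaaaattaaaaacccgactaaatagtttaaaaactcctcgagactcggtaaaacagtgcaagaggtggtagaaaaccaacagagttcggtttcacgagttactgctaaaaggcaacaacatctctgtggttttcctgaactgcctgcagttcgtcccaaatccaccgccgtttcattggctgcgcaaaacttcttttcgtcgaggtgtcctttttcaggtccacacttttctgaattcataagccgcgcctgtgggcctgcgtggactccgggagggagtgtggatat
A match of 6 letters is a description and not a bound site, and a missing match says only that the letters are not in this window.

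The members spanned a wide range of levels. Per kilobase of exon on the all-gene scale, CTRL sham libraries had a mean level of 35.6 CPM for Crim1, 30.7 for Tgfb2, 19.5 for Ptpn14, 10.6 for Myof, 3.43 for Axl, 2.87 for Gadd45a, 0.591 for Ankrd1, 0.513 for Nt5e and 0.313 for Fjx1. Neighbours in this order overlapped for Crim1 with Tgfb2, Axl with Gadd45a, and Ankrd1 with Nt5e. The other neighbours did not overlap across the 4 libraries. The receptor genes had 0.148 to 0.195 CPM per kilobase in the same libraries, without TMM factors. Fjx1 was the member nearest to that level and lay above it, at 0.2445 to 0.3472. In YT-iKO sham the highest mean per kilobase was that of Tgfb2 (31.2) and not of Crim1 (21.7), with overlapping libraries (16.4 to 47.1 for Tgfb2 and 17.5 to 25.0 for Crim1).

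**Figure D1:**
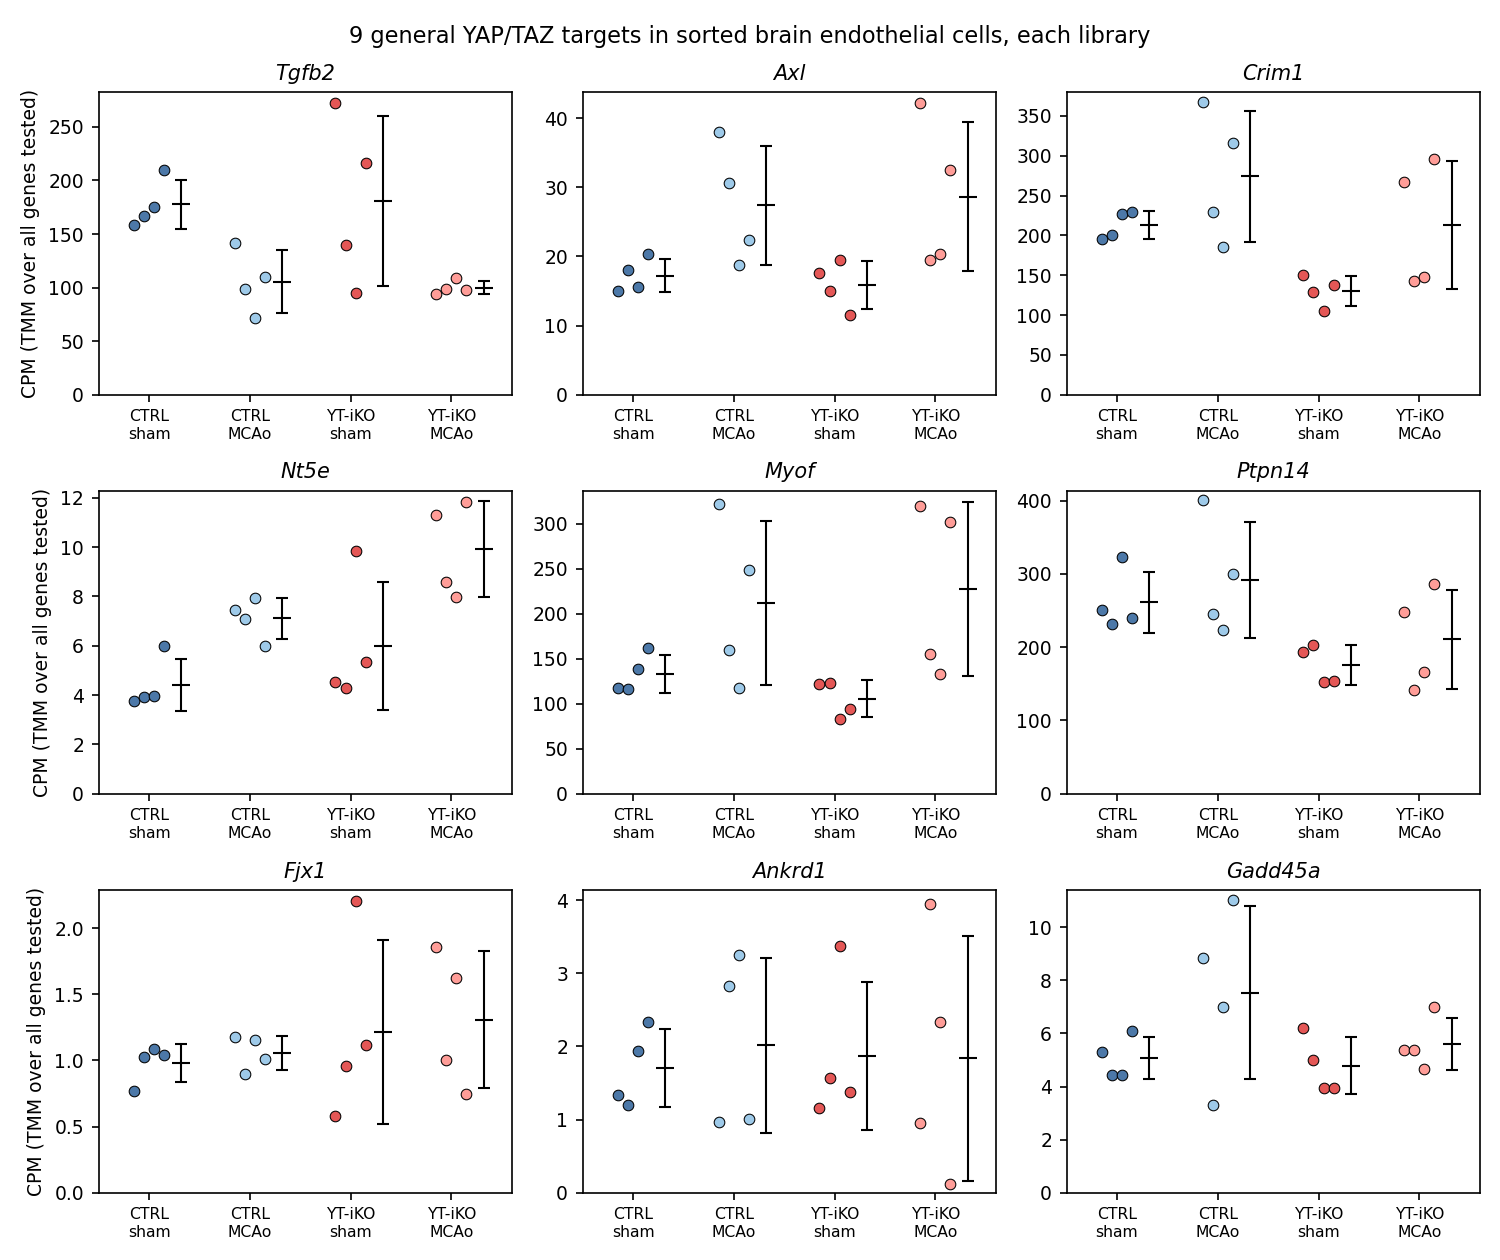
Level of each of the 9 genes in every library, in CPM on the all-gene scale (y axis, starting at 0) for the 4 groups (x axis); points are libraries and the bar is the mean with SD (n = 4). Crim1 lay at 196 to 230 CPM in CTRL sham and 105 to 150 in YT-iKO sham, whereas Ankrd1 and Fjx1 stayed under 4 CPM in every library.

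Loss of YAP and TAZ after sham was the first comparison, and it asked which of these targets depended on them in resting bECs. On the all-gene scale none of the 9 members was called by edgeR's quasi-likelihood test at an adjusted p under 0.1, against 30 of 31085 genes (0.0965%). Crim1 and Ptpn14 were lower in YT-iKO sham in every library, which made 2 of 9 members without overlap in that direction against 2.22% of all genes. Here and below, the share of all genes without overlap was counted on the all-gene scale only. How common a lack of overlap was on the abundant-gene scale is therefore not given. The same 2 members had an unadjusted p under 0.05, as did 2.16% of all genes. The median log2 fold change of the 9 was −0.08 and that of all genes 0.11, and with abundant-gene factors these were 0.07 and 0.30. With those factors Crim1 was called, against 0.37% of all genes, and limma-voom with quality weights also called Crim1 alone among the members, against 0.46%. DESeq2 called no member.

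After MCAo the genotypes were compared again, to ask whether the targets depended on YAP and TAZ in bECs of the stroke model. None of the 9 was called on the all-gene scale (0.0708% of all genes were), and 0 of 9 had an unadjusted p under 0.05 (1.49% of all genes). Nt5e was the 1 member whose libraries did not overlap, being higher in YT-iKO MCAo, against 0.566% of all genes in that direction. With abundant-gene factors the Nt5e groups overlapped and Ptpn14 was called as lower, against 0.582% of all genes called. Limma-voom with quality weights called Crim1 and Ptpn14 as lower, against 0.827%, and DESeq2 called no member.

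MCAo was compared with sham in each genotype, to ask how the targets respond to stroke with and without YAP and TAZ. In CTRL none of the 9 was called on the all-gene scale (0.216% of all genes), while 4 of 9, namely Axl, Nt5e, Myof and Tgfb2, had an unadjusted p under 0.05 (3.5% of all genes). Nt5e was higher without overlap (2.24% of all genes) and Tgfb2 lower without overlap (1.9%). With abundant-gene factors Nt5e overlapped, while Crim1 and Myof were called as higher, against 1.78% of all genes called. DESeq2 called no member in CTRL, and limma-voom with quality weights called Axl, Nt5e and Tgfb2 but also 24.2% of all genes.

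In YT-iKO none of the 9 was called between MCAo and sham on the all-gene scale (0.318% of all genes), and 5 of 9, the same 4 and Crim1, had an unadjusted p under 0.05 (3.01%). Axl and Myof were higher without overlap, against 0.785% of all genes. With abundant-gene factors the Axl groups overlapped, and Crim1 and Myof were called as higher, against 1.72% of all genes called. DESeq2 called Myof as higher and Tgfb2 as lower, against 239 of 19066 genes with an adjusted p (1.25%). Limma-voom called Axl, Nt5e and Tgfb2 with 18.1% of all genes. The median log2 fold change of the members was 0.36 in CTRL and 0.26 in YT-iKO, beside 0.07 and −0.02 for all genes.

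Whether the response to MCAo differed between genotypes was tested directly, as YT-iKO minus CTRL. None of the 9 was called, as were 0 of 31085 genes (0%), with an unadjusted p under 0.05 in 0 of 9 members and 0.373% of all genes. DESeq2 and limma-voom also called no member. The largest difference on the all-gene scale was that of Myof, 0.44 in log2 units (95% interval −0.46 to 1.34, unadjusted p = 0.32 by edgeR). That interval holds both an equal response and one more than 2-fold larger in YT-iKO. With 1 library left out the Myof value ran from 0.133 to 0.63, and limma-voom gave 0.12. With abundant-gene factors the largest difference was that of Gadd45a, −0.43 (−1.23 to 0.37). Crim1 differed by 0.35 (−0.42 to 1.12) and Tgfb2 by −0.11 (−0.89 to 0.68) on the all-gene scale. The interval was narrower for Crim1 on the abundant-gene scale, −0.10 to 0.48.

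**Figure D2:**
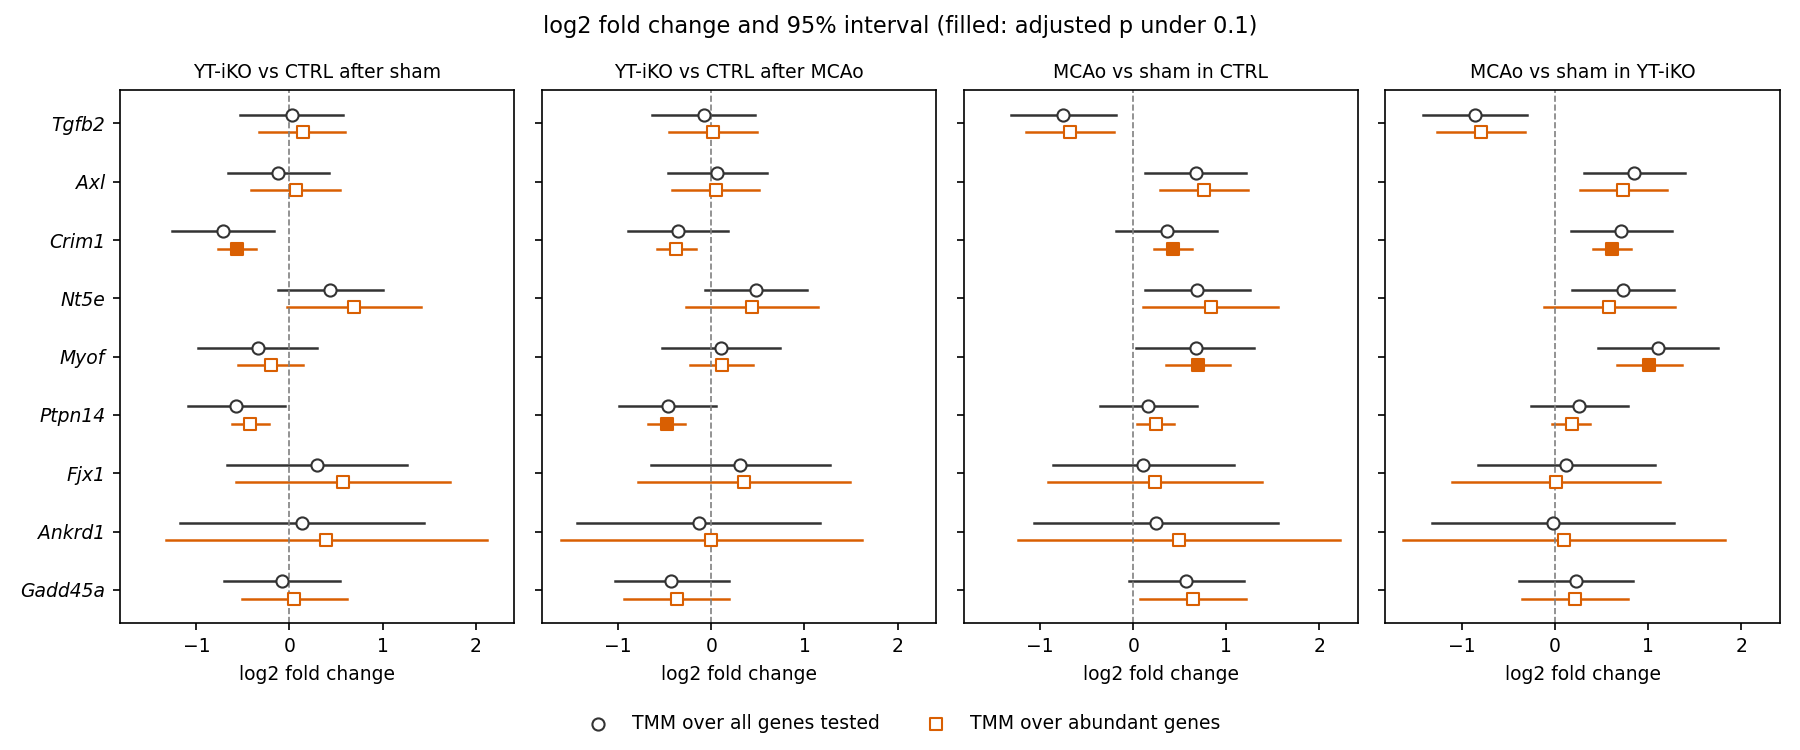
log2 fold change (x axis) of each member in 4 comparisons, with the 95% interval as a line. Circles use the all-gene scale and squares the abundant-gene scale, and filled symbols have an adjusted p under 0.1; no circle is filled, and squares are filled for Crim1 in 3 comparisons, Myof in the 2 comparisons of MCAo with sham, and Ptpn14 for genotype after MCAo.

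Crim1 encodes a membrane protein with cysteine-rich repeats that binds BMP ligands, and it spans chr17:78200248-78376592 of GRCm38 on the plus strand (ENSMUSG00000024074). On the all-gene scale the CTRL sham libraries had 195.9, 200.7, 227.1 and 230.0 CPM, and the YT-iKO sham libraries 150.1, 128.5, 104.8 and 137.5 CPM. Every YT-iKO sham library was thus below every CTRL sham library, with means of 213.4 ± 17.6 and 130.2 ± 19.2 CPM (SD, n = 4). The fold change was 0.61 (95% interval 0.418 to 0.89), or −0.71 on the log2 scale with a standard error of 0.26 (edgeR, unadjusted p = 0.0128, adjusted p = 0.99). With abundant-gene factors the same contrast was −0.56 with a standard error of 0.10 (edgeR, adjusted p = 0.0139), and it was called with each of the 16 libraries left out in turn (adjusted p = 0.00779 to 0.066). It was also called on the all-gene scale when only the 2 sham groups were fitted (−0.68, adjusted p = 0.0306), and limma-voom called it too (−0.65, adjusted p = 0.0536), while DESeq2 did not (−0.71, adjusted p = 0.49).

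After MCAo, Crim1 had 367.0, 229.0, 184.9 and 316.2 CPM in CTRL and 267.4, 142.3, 147.4 and 296.1 CPM in YT-iKO on the all-gene scale, and the groups overlapped. In both groups replicates 1 and 4 were the high libraries. The abundant-gene scale brought the libraries of each group together, at 285.0, 267.0, 233.2 and 287.2 CPM in CTRL MCAo and 235.1, 191.8, 181.7 and 217.3 CPM in YT-iKO MCAo. Between genotypes after MCAo the log2 fold change was −0.36 on the all-gene scale (adjusted p = 1 by edgeR) and −0.38 on the abundant-gene scale (95% interval −0.58 to −0.17, adjusted p = 0.154), where leaving out CTRL MCAo replicate 3 or YT-iKO MCAo replicate 1 made it called (adjusted p down to 0.0792), while limma-voom gave −0.61 (adjusted p = 0.0707). Compared with sham, Crim1 was higher after MCAo in every library of both genotypes on the abundant-gene scale, by 0.43 in CTRL (standard error 0.10, adjusted p = 0.041) and 0.61 in YT-iKO (0.10, adjusted p = 0.0028). The median log2 fold change of all genes on that scale was 0.21 in CTRL and −0.02 in YT-iKO. On the all-gene scale the values of Crim1 were 0.36 and 0.71 and were not called (adjusted p = 1 and 0.907). The call in CTRL was lost without CTRL sham replicate 1 or 2 or CTRL MCAo replicate 1 or 4 (adjusted p up to 0.174), and the call in YT-iKO was kept in all 16 fits with 1 library left out. Limma-voom gave 0.12 in CTRL and 0.16 in YT-iKO (adjusted p = 0.53 and 0.458).

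Tgfb2 encodes a ligand of the TGF-β family and lies at chr1:186622792-186705989 on the minus strand (ENSMUSG00000039239). Its levels on the all-gene scale were 158.7, 166.4, 175.3 and 210.2 CPM in CTRL sham and 142.0, 98.6, 71.8 and 109.9 CPM in CTRL MCAo. All CTRL MCAo libraries were below all CTRL sham libraries. The log2 fold change was −0.75 (standard error 0.27, unadjusted p = 0.0107 and adjusted p = 0.887 by edgeR), or 0.594-fold. YT-iKO sham had 272.5, 139.5, 94.98 and 216.5 CPM, the widest spread of its 4 groups, and YT-iKO MCAo had 94.3, 99.0, 108.6 and 97.5 CPM. These groups overlapped through YT-iKO sham replicate 3 alone. In YT-iKO the log2 fold change was −0.86 (0.27, unadjusted p = 0.00433, adjusted p = 0.51), and with that 1 library left out it was −1.10 and was called (adjusted p = 0.0465 by edgeR). DESeq2 called the decrease in YT-iKO (−0.88, adjusted p = 0.0779) and not in CTRL (−0.74, adjusted p = 0.279), and limma-voom called it in both (adjusted p = 0.0217 in YT-iKO and 0.0014 in CTRL). With abundant-gene factors it was −0.68 in CTRL and −0.80 in YT-iKO (adjusted p = 0.246 and 0.126), and in YT-iKO it was called in 4 of the 16 fits with 1 library left out, those without YT-iKO sham replicate 2 or 3 or YT-iKO MCAo replicate 2 or 3. Between genotypes Tgfb2 differed by 0.03 after sham (95% interval −0.53 to 0.58) and −0.08 after MCAo (−0.64 to 0.47), the latter turning to 0.02 with abundant-gene factors. The Tgfb2 locus shares 124 exon bases with the antisense gene Gm29491, and reads of the 2 genes cannot be told apart since the handling of strand is not given in the sources used here.

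Axl encodes a receptor tyrosine kinase of the TAM family, which binds Gas6, and lies at chr7:25757273-25788705 on the minus strand (ENSMUSG00000002602). CTRL sham libraries had 15.1, 18.0, 15.6 and 20.3 CPM and CTRL MCAo libraries 38.0, 30.6, 18.7 and 22.4 CPM, which overlapped through CTRL MCAo replicate 3. YT-iKO sham libraries had 17.6, 15.1, 19.4 and 11.5 CPM and YT-iKO MCAo libraries 42.2, 19.5, 20.4 and 32.5 CPM. The latter pair did not overlap, although the gap between YT-iKO sham replicate 3 and YT-iKO MCAo replicate 2 was small. With abundant-gene factors this was the other way round, since the CTRL groups separated (14.08 to 19.4 and 20.35 to 35.65 CPM) and the YT-iKO groups overlapped (12.06 to 26.07 and 23.83 to 37.13 CPM). The log2 fold change with MCAo was 0.67 in CTRL (standard error 0.26, unadjusted p = 0.0172, adjusted p = 1 by edgeR) and 0.85 in YT-iKO (0.26, unadjusted p = 0.00349, adjusted p = 0.448). With abundant-gene factors it was 0.76 and 0.73 (adjusted p = 0.151 and 0.181), and both were called without YT-iKO sham replicate 3 (adjusted p = 0.0513 and 0.0143). For Axl the log2 fold change between genotypes was −0.12 after sham (95% interval −0.66 to 0.42, and 0.07 with abundant-gene factors). After MCAo it was 0.06 (−0.47 to 0.60), and −0.34 by limma-voom. None of these was called.

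Myof encodes myoferlin, a membrane protein of the ferlin family that acts in vesicle traffic and membrane repair, and lies at chr19:37899036-38043577 on the minus strand (ENSMUSG00000048612). In YT-iKO it had 122.5, 123.3, 83.0 and 93.9 CPM after sham and 319.4, 155.1, 133.5 and 302.4 CPM after MCAo on the all-gene scale, without overlap. The log2 fold change of 1.11 (standard error 0.31), or 2.15-fold with a 95% interval of 1.38 to 3.36, was the largest of any member in any comparison (edgeR, unadjusted p = 0.00172, adjusted p = 0.295). In CTRL it had 118.0, 116.4, 138.6 and 161.5 CPM after sham and 321.8, 159.6, 117.8 and 249.1 CPM after MCAo. These overlapped through CTRL MCAo replicates 2 and 3, and the log2 fold change was 0.67 (0.31, adjusted p = 1). Replicates 1 and 4 were again the high MCAo libraries in both genotypes. With abundant-gene factors Myof was called in both, by 0.70 in CTRL (adjusted p = 0.047) and 1.01 in YT-iKO (standard error 0.16, adjusted p = 0.00336). The call in YT-iKO was kept with every library left out, and the call in CTRL was lost without CTRL sham replicate 1, 2 or 3 or CTRL MCAo replicate 1 or 4 (adjusted p up to 0.207). DESeq2 called the increase in YT-iKO (1.09, adjusted p = 0.0316) and not in CTRL (0.67, 0.638), and limma-voom called neither (0.42 in YT-iKO with adjusted p = 0.144, and 0.30 in CTRL with 0.195). Between genotypes the difference was −0.34 after sham (95% interval −0.98 to 0.30) and 0.10 after MCAo (−0.53 to 0.74), or −0.20 and 0.11 with abundant-gene factors.

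Nt5e encodes CD73, the cell-surface enzyme that makes adenosine from AMP, and lies at chr9:88327197-88372092 on the plus strand (ENSMUSG00000032420). Its counts were low, 51 to 225 per library. CTRL libraries had 3.77, 3.93, 3.96 and 5.978 CPM after sham and 7.46, 7.09, 7.94 and 5.98 CPM after MCAo. YT-iKO libraries had 4.53, 4.27, 9.85 and 5.34 CPM after sham and 11.3, 8.58, 7.97 and 11.8 CPM after MCAo. The highest CTRL sham library thus almost met the lowest CTRL MCAo library, and they overlapped with abundant-gene factors. YT-iKO sham replicate 3, a library with high background, exceeded 2 of the YT-iKO MCAo libraries. With MCAo the log2 fold change was 0.69 in CTRL (standard error 0.27, unadjusted p = 0.0188, adjusted p = 1) and 0.73 in YT-iKO (0.27, unadjusted p = 0.012, adjusted p = 0.889 by edgeR). With abundant-gene factors these were 0.83 and 0.58 (adjusted p = 0.493 and 1). Without that library the latter was 1.04 on the all-gene scale and was called (adjusted p = 0.0858). Limma-voom called it in both genotypes (adjusted p = 0.0147 in CTRL and 0.0563 in YT-iKO). YT-iKO minus CTRL was 0.44 after sham (95% interval −0.12 to 1.00) and 0.48 after MCAo (−0.07 to 1.03), and 0.69 and 0.44 with abundant-gene factors, all opposite in sign to the values of Crim1 and Ptpn14. With 1 library left out the value after sham ran from 0.101 to 0.623 on the all-gene scale. Limma-voom gave 0.24 after sham and 0.21 after MCAo, and neither was called.

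Ptpn14 encodes a cytoplasmic tyrosine phosphatase that binds YAP and restrains it, and lies at chr1:189728268-189876695 on the plus strand (ENSMUSG00000026604). On the all-gene scale CTRL sham libraries had 251.2, 231.1, 323.0 and 239.4 CPM, and YT-iKO sham libraries 193.4, 203.6, 151.8 and 154.0 CPM. The groups did not overlap. The log2 fold change was −0.57 (standard error 0.25, unadjusted p = 0.0325, adjusted p = 0.99 by edgeR), or 0.673-fold, and −0.42 (0.10, adjusted p = 0.108) on the abundant-gene scale, where it was called in 1 of 16 fits with 1 library left out, that without YT-iKO sham replicate 3 (adjusted p = 0.0818). After MCAo the abundant-gene scale gave 310.7, 286.0, 281.0 and 271.7 CPM in CTRL and 218.6, 190.5, 204.5 and 209.9 CPM in YT-iKO. Every YT-iKO MCAo library was below every CTRL MCAo library there, and Ptpn14 was called at −0.48 (standard error 0.10, 0.717-fold with a 95% interval of 0.622 to 0.825, adjusted p = 0.0327 by edgeR). The call was lost without CTRL MCAo replicate 1 or YT-iKO MCAo replicate 2 (adjusted p up to 0.135). On the all-gene scale the groups overlapped after MCAo, at 222.8 to 400.1 and 141.3 to 286.0 CPM, with a log2 fold change of −0.47 (0.25, adjusted p = 1). The log2 fold change of Ptpn14 with MCAo was 0.16 in CTRL (95% interval −0.36 to 0.68). In YT-iKO it was 0.26 (−0.26 to 0.78). Abundant-gene factors gave 0.24 and 0.18 and limma-voom −0.06 and −0.11, and none of these was called. Ptpn14 shares 177 exon bases with the antisense gene Gm26574, and Crim1 shares 123 with Fez2 on the opposite strand.

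**Figure D3:**
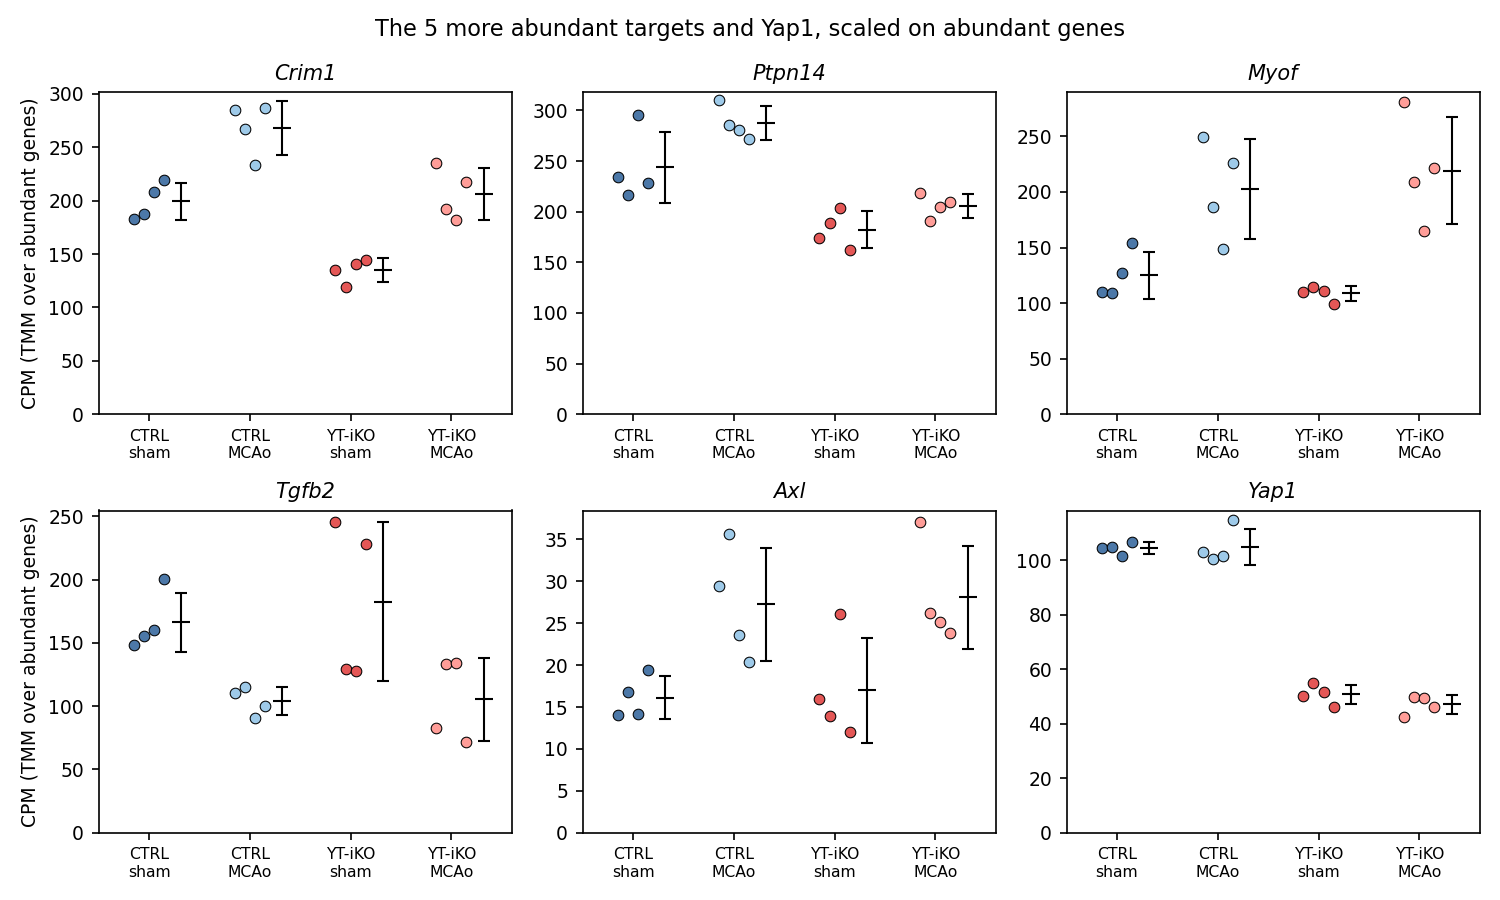
Level in every library of the 5 members averaging 10 CPM or more, and of Yap1, in CPM on the abundant-gene scale (y axis, starting at 0) for the 4 groups; points are libraries and the bar is the mean with SD (n = 4). Ptpn14 lay at 272 to 311 CPM in CTRL MCAo and 191 to 219 in YT-iKO MCAo, and Yap1 at 101 to 115 and 42.7 to 50.

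Fjx1 encodes a secreted relative of the fly kinase four-jointed, which acts on the cadherins Fat and Dachsous upstream of Hippo signalling, and lies at chr2:102449366-102452499 on the minus strand (ENSMUSG00000075012). It was the lowest member, with 12 to 37 counts per library and a level of 0.578 to 2.20 CPM. Its groups overlapped in all 4 comparisons. The log2 fold changes ran from 0.11 to 0.31 with standard errors of 0.46 to 0.47. With abundant-gene factors they ran from 0.01 to 0.57. For genotype after sham the 95% interval was −0.67 to 1.26 on the all-gene scale.

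Ankrd1 encodes an ankyrin repeat protein of the nucleus, best known from muscle and injured tissue, and is a widely used readout of YAP and TAZ. It lies at chr19:36111961-36120099 on the minus strand (ENSMUSG00000024803). CTRL libraries held 21, 21, 25 and 36 Ankrd1 counts after sham and 14, 41, 48 and 16 after MCAo. YT-iKO libraries held 24, 28, 52 and 21 after sham and 19, 63, 36 and 2 after MCAo. The 3 highest counts were in libraries with high background and the lowest in the library with the lowest background, and all 4 comparisons overlapped. YT-iKO minus CTRL was 0.13 after sham (95% interval −1.18 to 1.44) and −0.13 after MCAo (−1.44 to 1.17) on the log2 scale. MCAo minus sham was 0.24 in CTRL (−1.07 to 1.55) and −0.02 in YT-iKO (−1.32 to 1.28, and 0.10 with abundant-gene factors). Each of the 4 intervals holds a 2-fold change in either direction, so such a change was not detectable for Ankrd1 in these libraries.

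Gadd45a encodes a stress protein that acts in growth arrest after DNA damage, and lies at chr6:67035096-67037457 on the minus strand (ENSMUSG00000036390), with 337 exon bases shared with E230016M11Rik on the opposite strand. Its levels were 5.30, 4.44, 4.43 and 6.11 CPM in CTRL sham and 8.84, 3.31, 6.99 and 11.0 CPM in CTRL MCAo. CTRL MCAo replicate 2 was below all CTRL sham libraries and the other 3 above them. The log2 fold change in CTRL was 0.57 (95% interval −0.05 to 1.19, unadjusted p = 0.0684, adjusted p = 1 by edgeR). YT-iKO libraries had 3.95 to 6.22 CPM after sham and 4.66 to 6.98 CPM after MCAo, with a log2 fold change of 0.22 (−0.39 to 0.84). YT-iKO minus CTRL was −0.08 after sham (0.05 with abundant-gene factors) and −0.43 after MCAo (−1.04 to 0.19). With 1 library left out the value after MCAo ran from −0.684 to −0.194. That for MCAo in CTRL ran from 0.326 to 0.817. Limma-voom gave 0.04 for genotype after MCAo and −0.06 for MCAo in CTRL.

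The 4 members with low counts were set against the counts that an even background would put on their exons. It would supply 58.9% of all Fjx1 counts, 34% of those of Ankrd1, 26.7% of Nt5e and 6.56% of Gadd45a, against 0.621% to 4.79% for the 5 abundant members. In 1 library, YT-iKO MCAo replicate 2, Fjx1 had 16 counts against 19.6 expected. Ankrd1 exceeded the expected count in all 16 libraries, and the 2 counts of YT-iKO MCAo replicate 4 stood against 1.36 expected. Across the 16 libraries the log2 level of Ankrd1 had a Pearson correlation of 0.90 with the logarithm of the background density (Spearman 0.85), and that of Fjx1 0.43 (0.25). For Nt5e the correlation was −0.055 (0.082) and for Gadd45a −0.45 (−0.45). Level and density come from the same libraries and share their depth, so no p is given. With the background taken off, on the abundant-gene scale, Ankrd1 had means of 1.105 ± 0.558 CPM after sham and 1.57 ± 1.31 after MCAo in CTRL, and 1.355 ± 1.08 and 1.48 ± 1.69 in YT-iKO (SD, n = 4), and the groups overlapped as before. In CTRL, Nt5e had 1.98 to 4.33 CPM after sham and 4.03 to 6.715 after MCAo, and in YT-iKO 2.72 to 8.57 and 6.17 to 8.75.

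**Figure D4:**
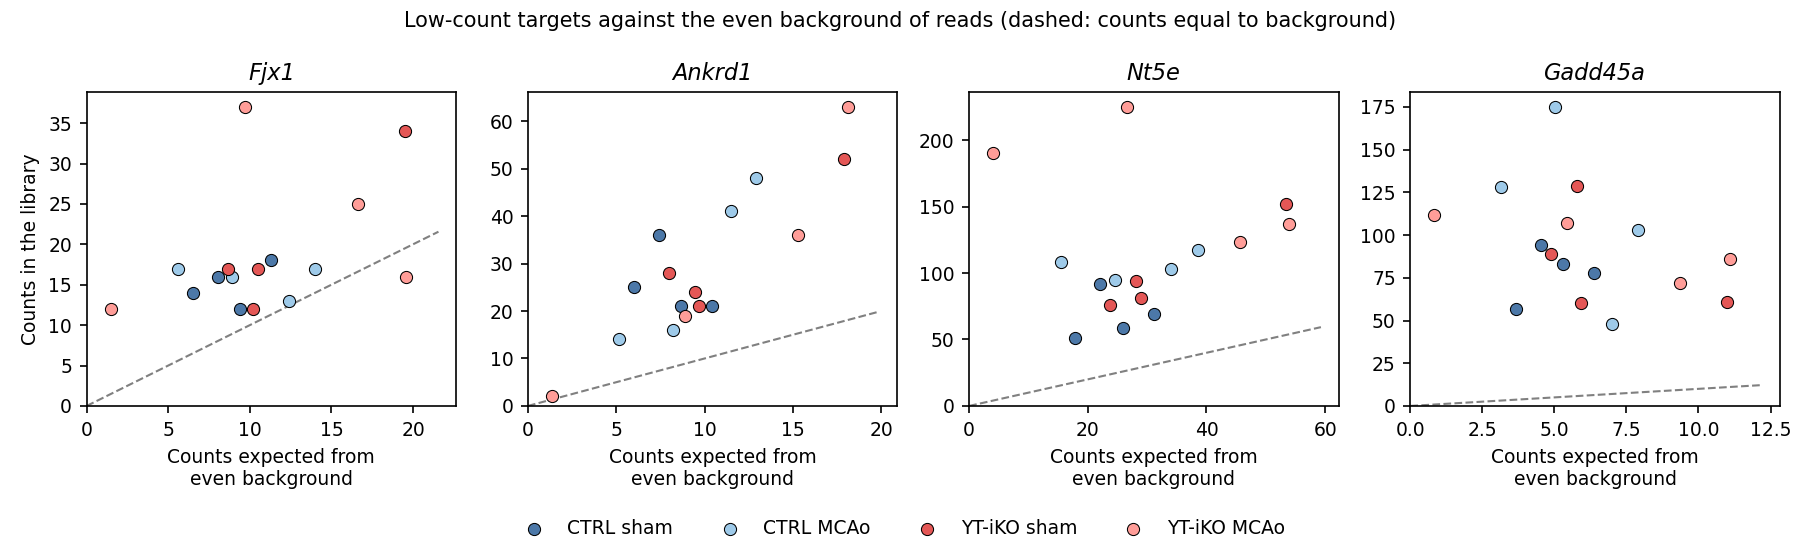
Counts of the 4 low members in each of the 16 libraries (y axis) against the counts expected from the even background of reads on their exons (x axis), coloured by group. The dashed line marks equal counts. Ankrd1 runs from 2 counts where 1.36 were expected to 63 where 18.1 were expected, and Fjx1 is on the line or near it in several libraries.

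Marker lists of endothelial and other cells were set beside each contrast on the all-gene scale. After sham the 6 astrocyte markers, led by Gja1, summed to 97.3 to 110 CPM in CTRL and 62.1 to 82.1 CPM in YT-iKO, while 3 of the 6 had a log2 fold change above 0 and 3 below (median −0.07). The 8 endothelial markers summed to 15500 to 17000 CPM in CTRL and 8860 to 16000 CPM in YT-iKO, with 8 of 8 below 0 (median −0.32). With abundant-gene factors the astrocyte sums overlapped (90.9 to 105 and 57.7 to 110 CPM) and the endothelial sums were 14700 to 15900 and 11900 to 14400 CPM, without overlap, beside the lower Crim1 and Ptpn14. Of the low lists, 5 of 6 neuron markers were above 0 after sham (median 0.66, sums of 12.8 to 18.3 CPM in CTRL and 14.1 to 36.3 in YT-iKO), as were 4 of 5 of monocytes and neutrophils (median 0.73, 3.44 to 4.85 and 3.65 to 9.46 CPM). Above 0 were also 4 of 5 oligodendrocyte markers (median 0.41, 18.4 to 24.2 and 21.6 to 29.9 CPM), 6 of 7 of microglia and macrophages (0.17, 9.46 to 19.8 and 9.74 to 24.4 CPM), both red cell genes (0.64, 4.10 to 17.7 and 9.68 to 23.4 CPM) and 5 of 6 fibroblast markers (0.21). Of the mural markers 3 of 8 were above 0 (−0.27). The sums of these 7 lists overlapped between genotypes, and the median of all genes was 0.11. After MCAo, where Ptpn14 was called with abundant-gene factors, 7 of 8 endothelial markers were below 0 (median −0.12, sums of 11000 to 18500 CPM in CTRL and 8830 to 16800 in YT-iKO, or 13500 to 15500 and 11900 to 13700 with those factors). Of microglia and macrophages 7 of 7 markers were above 0 (median 0.28, 6.84 to 16.3 and 7.79 to 23.7 CPM). The medians of the other lists after MCAo were −0.45 for monocytes and neutrophils, −0.29 for astrocytes, −0.13 for mural cells, −0.01 for oligodendrocytes, 0.03 for fibroblasts, 0.10 for neurons and 0.46 for red cells, beside 0.03 for all genes. The sums of all 9 lists overlapped between genotypes after MCAo. The part of these lists in the values of the 9 members was not tested.

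With MCAo the 6 fibroblast markers, led by Col1a2 in the CTRL groups, summed to 19.7 to 22.9 CPM after sham and 31.6 to 39.2 after MCAo in CTRL, and to 20.7 to 40.1 and 30.8 to 42.2 CPM in YT-iKO. The CTRL sums did not overlap, also with abundant-gene factors (18.1 to 21.9 and 28.6 to 45.7 CPM), while the YT-iKO sums did. In log2 fold change 6 of the 6 were above 0 in CTRL (median 0.77) and 5 of the 6 in YT-iKO (median 0.70). The 8 mural markers, led by Rgs5, summed to 670 to 787 CPM after sham and 474 to 1230 after MCAo in CTRL, and to 516 to 741 and 432 to 1020 CPM in YT-iKO. The mural sums overlapped, with 7 of the 8 markers above 0 in log2 fold change with MCAo in CTRL (median 0.32) and 5 of the 8 in YT-iKO (median 0.29). Oligodendrocyte sums in CTRL were 18.4 to 24.2 CPM after sham and 24.6 to 29.2 after MCAo (median log2 fold change 0.29), and overlapped with abundant-gene factors. Medians of the other lists in CTRL and YT-iKO were −0.04 and 0.11 for endothelial cells, 0.22 and 0.15 for astrocytes, 0.24 and −0.19 for neurons, −0.03 and −0.12 for microglia and macrophages, 0.43 and −0.23 for monocytes and neutrophils and −0.45 and −0.64 for red cells, with −0.21 for oligodendrocytes in YT-iKO. Lum was at 0 in at least 1 CTRL sham library and no other fibroblast or astrocyte marker was at 0 in any library, while S100a9 and S100a8, of the monocyte and neutrophil list, were at 0 in at least 1 CTRL sham and at least 1 YT-iKO MCAo library. No marker of any list was called by edgeR on the all-gene scale. The study's own DESeq2 list for MCAo in CTRL holds Dcn as higher. With abundant-gene factors Slco1a4, an endothelial transporter, was called as lower in YT-iKO after sham and MCAo (−0.73 and −0.80, adjusted p = 0.0139 and 0.00472 by edgeR), Gfap and Dcn as higher with MCAo in CTRL (1.26 and 2.22, adjusted p = 0.0435 and 0.0866), and Pecam1 as higher with MCAo in YT-iKO (0.42, adjusted p = 0.0955). Their part in the values of the 9 members was not tested.

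Other genes of the pathway gave a scale for the members. Of 13 further widely used targets, 1 was called in each genotype comparison, the same gene in both. Of all genes 0.0965% and 0.0708% were called. Amotl2, an angiomotin that binds YAP and holds it in the cytoplasm, fell from 237.9 ± 18.3 to 58.6 ± 8.04 CPM after sham (SD, n = 4; log2 fold change −2.02, standard error 0.24, adjusted p = 0.000273 by edgeR). After MCAo it fell from 201.6 ± 45.7 to 52.3 ± 16.6 CPM (−1.95, 0.24, adjusted p = 0.000749). The median log2 fold change of the 13 was −0.29 after sham and −0.15 after MCAo, with 8 and 9 of the 13 below 0. By edgeR 5 of the 13 had an unadjusted p under 0.05 after sham, against 2.16% of all genes. After MCAo 3 of the 13 did, against 1.49%. Ccn1 and Ccn2, matricellular proteins, gave −1.37 and −1.48 after sham and −2.13 and −1.34 after MCAo, and none of these passed the test (adjusted p = 0.99 and 0.99, then 0.984 and 1). After sham their unadjusted p by edgeR was 0.0372 for Ccn1 and 0.00313 for Ccn2. Ccn2 was lower in every YT-iKO sham library than in every CTRL sham library, against 2.22% of all genes, while Ccn1 overlapped. Igfbp3, which binds insulin-like growth factors, had 16.8 to 42.4 CPM in YT-iKO sham and 36.03 to 179.3 CPM in YT-iKO MCAo, the largest difference with MCAo among the 13 on the all-gene scale (log2 fold change 1.72, standard error 0.51, unadjusted p = 0.00284, adjusted p = 0.402 by edgeR). Between genotypes Igfbp3 gave −1.26 after sham (unadjusted p = 0.0207, adjusted p = 0.99) and −0.10 after MCAo, with overlapping libraries. With abundant-gene factors Lats2, a kinase of the Hippo pathway, was called with Amotl2 in both genotype comparisons (−0.43 and −0.38, adjusted p = 0.0334 and 0.0529). With those factors 0.37% and 0.582% of all genes were called. None of the 13 was called by edgeR between MCAo and sham on either scale.

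**Figure D5:**
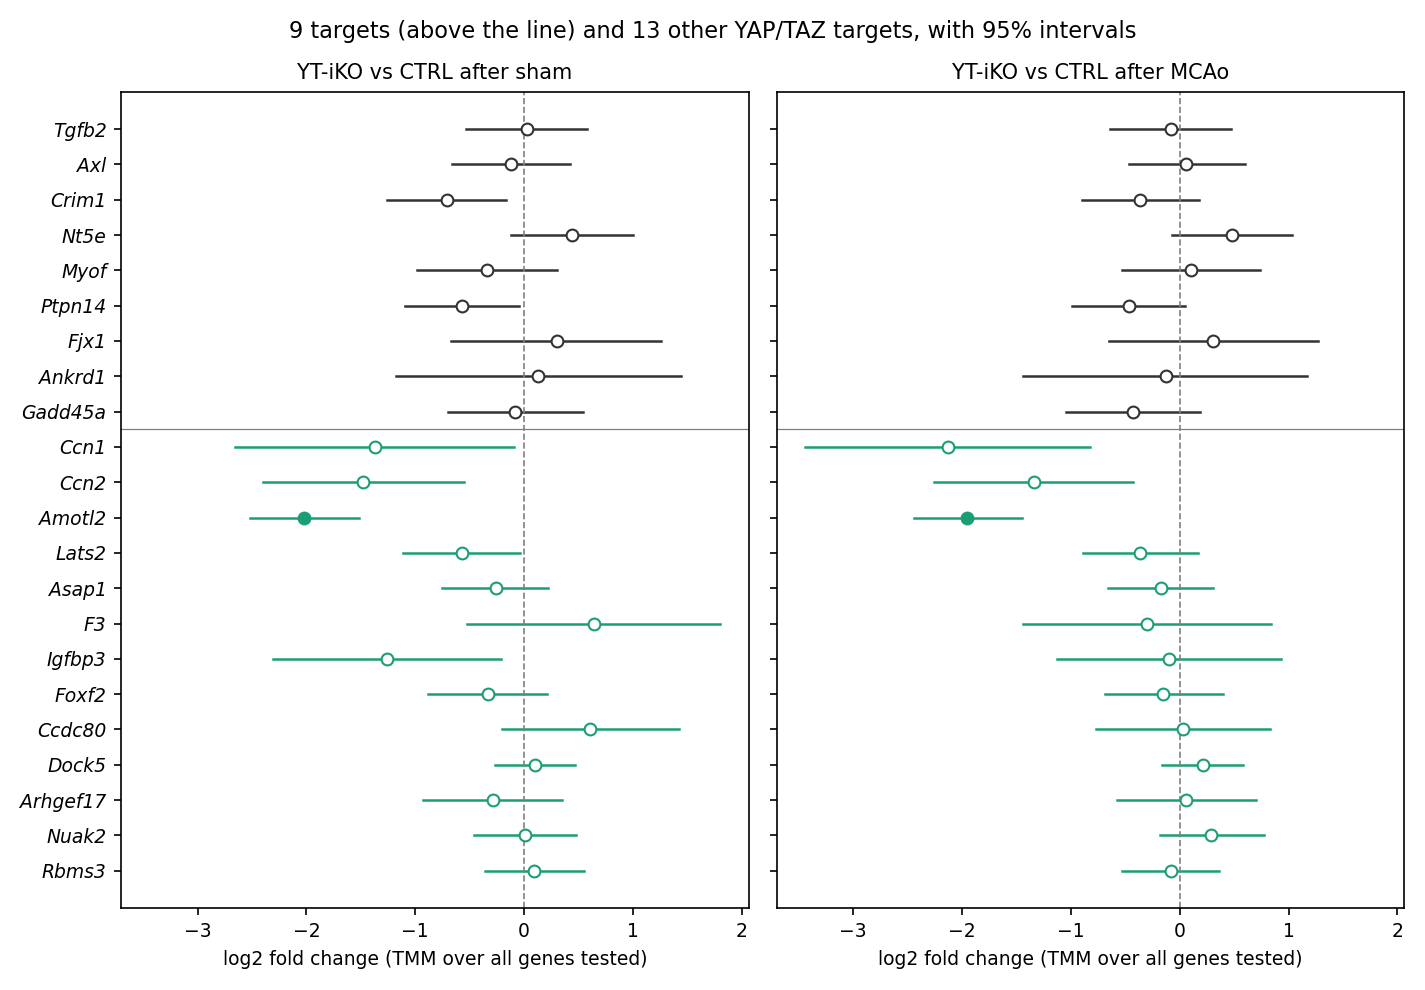
log2 fold change of YT-iKO against CTRL on the all-gene scale (x axis) after sham and after MCAo, with 95% intervals as lines, for the 9 members (black) and 13 other YAP/TAZ targets (green). The filled symbol, Amotl2 at −2.02 and −1.95, is the 1 gene of the 22 with an adjusted p under 0.1.

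Of 27 partners and relatives of the members none was called on the all-gene scale by edgeR in any of the 5 comparisons, with 1 to 4 of the 27 at an unadjusted p under 0.05 in the first 4 and 0 in the last. The largest fold changes among those averaging 10 CPM or more were those of Gadd45g, Entpd1 and Dchs1. Gadd45g, a relative of Gadd45a, had 14.1 ± 4.10 CPM in CTRL sham and 32.5 ± 17.6 in CTRL MCAo (log2 fold change 1.21, adjusted p = 0.512) and 22.2 ± 5.54 and 48.0 ± 25.1 CPM in YT-iKO (1.11, adjusted p = 0.593; SD, n = 4). Entpd1 encodes CD39, which makes the AMP that CD73 uses, and had 135.3 to 188.4 CPM in YT-iKO sham and 208.6 to 582.2 in YT-iKO MCAo, without overlap (1.13, adjusted p = 0.239). Dchs1, a cadherin on which four-jointed acts, differed by −0.70 between genotypes after MCAo (adjusted p = 1). On the abundant-gene scale 1 of the 27 was called as lower in each genotype comparison, against 0.37% of all genes called after sham and 0.582% after MCAo. Between MCAo and sham 4 were called as higher and 1 as lower in each genotype, against 1.78% of all genes in CTRL and 1.72% in YT-iKO. With factors from abundant genes Entpd1 was called with MCAo in both genotypes (0.62 and 1.00, adjusted p = 0.0393 and 0.00108), as was Gadd45g (1.22 and 1.03, adjusted p = 0.0386 and 0.085), and Dchs1 between genotypes after MCAo (−0.71, adjusted p = 0.0481). There Mertk, a TAM receptor related to Axl, was called as lower after MCAo in both genotypes (−0.49 and −0.37, adjusted p = 0.00395 and 0.0277). Pros1, a ligand of TAM receptors, was called as higher in both (0.42 and 0.34, adjusted p = 0.0273 and 0.0942). Ptpn21, the closest relative of Ptpn14, was called as lower in YT-iKO after sham (−0.48, adjusted p = 0.0102). Dysf, a ferlin like Myof, was called as higher after MCAo in YT-iKO (0.57, adjusted p = 0.0343) and Dchs1 as higher in CTRL (0.62, adjusted p = 0.0571).

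Among the 5 members averaging 10 CPM or more, levels across the 16 libraries were compared as log2(CPM + 1) on the all-gene scale. Crim1 and Ptpn14 had a Pearson correlation of 0.90, Crim1 and Myof 0.85, Axl and Myof 0.84, and Tgfb2 and Axl −0.48. On the abundant-gene scale these were 0.81, 0.76, 0.78 and −0.65, and that of Tgfb2 with Myof went from −0.27 to −0.71. On the all-gene scale the gene most like each member, of 9131 others, was Grn for Crim1 (r = 0.975), Slc12a7 for Myof (0.969), Mrc2 for Axl (0.967), Itga1 for Ptpn14 (0.96) and Sgpp2 for Tgfb2 (0.923). Levels on that scale also correlated with the logarithm of the background density. Pearson r was −0.66 for Ptpn14, −0.65 for Crim1 and Myof, −0.39 for Axl and −0.2 for Tgfb2. These correlations describe 16 libraries that share scaling factors, background and groups, and carry no p.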

How the data were processed

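Bulk RNA of sorted bECs was analysed in 16 libraries, 4 per group, grouped by the genotype, treatment and replicate of the labels. The authors mapped paired-end reads from SMART-Seq libraries with STAR 2.7.8a to GRCm38 and deposited raw counts per gene, which are whole numbers without normalization. The counting program, its use of strand and its filter are not given in the sources used here. Reads carry no molecular identifiers, so the counts are of reads and not of molecules. Intervals come from a model of counts and cover the spread between these pools together with the counting of reads.

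Counts were tested with edgeR 4.0.16 in R 4.3.3 (TMM, filterByExpr at 10 counts and 15 in total, 4 groups in 1 model, quasi-likelihood F test, Benjamini-Hochberg adjustment over 31085 genes, called under 0.1, the study's threshold). Intervals are 95% intervals of the fitted fold change. Alternatives were TMM factors from genes averaging 10 CPM or more, RLE factors, DESeq2 1.42.0, limma-voom with quality weights (limma 3.58.1), no filter, CPM above 1 in at least 4 libraries, only the groups compared, a replicate block and each library left out. The model was tested on simulated data. Positions come from GENCODE M21 on GRCm38, which lacks 142 of the 37003 genes, and promoters from RefSeq. Cell type markers were summed for 9 lists: endothelial, mural, fibroblast, astrocyte, oligodendrocyte, neuron, microglia and macrophage, monocyte and neutrophil, and red cell.

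Genes named are the 9 members, Yap1, Wwtr1, those of 13 further targets and 27 partners that were called or had the largest changes, the gene most alike each abundant member, genes that share exon bases with a member, and cell type markers that lead a list, are at 0 or were called. The members, the lists and the abundant-gene scale were chosen with earlier results of these data known.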

Additional observations from a re-analysis of the deposited data

Results flagged for a closer look

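Of 36 groups of 4 libraries, 9 members in 4 groups, 1 held a library far from the other 3 by Dixon's test, a rate at or under the 1 in 20 that chance gives. CTRL sham replicate 4 had 5.98 CPM of Nt5e, against 3.77 to 3.96 CPM in the other 3 CTRL sham libraries. This library had 92 Nt5e counts, 24.0% of them expected from the even background, and a background density of 0.155 CPM per kilobase, within the 0.148 to 0.195 of its group. The cause was not tested.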

How the results depend on the processing

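The count of 0 called members held in all 5 comparisons with RLE factors, no filter, CPM above 1 in at least 4 libraries and the replicate block. Factors from abundant genes called 1, 1, 2, 2 and 0 members (genotype after sham, genotype after MCAo, MCAo in CTRL, MCAo in YT-iKO and the difference of responses), limma-voom 1, 2, 3, 3 and 0, and DESeq2 0, 0, 0, 2 and 0. A model of only the groups compared called 1 (Crim1) for genotype after sham and 2 (Axl and Tgfb2) for MCAo in CTRL. With 1 library left out the count ran from 0 to 2 for MCAo in YT-iKO, where Nt5e and Tgfb2 were called without YT-iKO sham replicate 3 and Myof without YT-iKO MCAo replicate 2 or 3, and stayed at 0 elsewhere. With factors from abundant genes it was 5 without YT-iKO sham replicate 3, against 1.89% of all genes. Of all genes, 30, 22, 67 and 99 were called in the first 4 comparisons, against 115, 181, 554 and 534 with factors from abundant genes, 65, 78, 203 and 239 by DESeq2, 143, 257, 7538 and 5626 by limma-voom, 126, 32, 623 and 17 with only the groups compared, 41, 31, 121 and 137 with CPM above 1, 34, 29, 98 and 110 with RLE, and 34, 29, 94 and 100 without a filter. With 1 library left out they ran from 12 to 43, 11 to 47, 26 to 162 and 37 to 203. Factors from abundant genes moved the split of higher and lower calls from 1 and 21 to 40 and 141 for genotype after MCAo, and from 86 and 13 to 382 and 152 for MCAo in YT-iKO.

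Of 1071 values of the 9 members under all alternatives, 949 kept sign and side of the threshold, 5 kept the sign but had no adjusted p by DESeq2, 24 were newly called and 93 changed sign, none of them called. The cause was not tested. With the replicate block the log2 fold changes of other sign were Ankrd1 −0.072 and Tgfb2 −0.052 for genotype after sham, Ankrd1 −0.059 for MCAo in CTRL, Tgfb2 0.030 for the difference of the responses. With limma-voom the log2 fold changes of other sign were Ankrd1 −0.13 and Fjx1 −0.092 for genotype after sham, Axl −0.34, Tgfb2 0.16, Gadd45a 0.044 and Myof −0.15 for genotype after MCAo, Ptpn14 −0.059 and Gadd45a −0.062 for MCAo in CTRL, Ankrd1 0.73, Ptpn14 −0.11 and Gadd45a −0.0046 for MCAo in YT-iKO, Ankrd1 0.098, Axl −0.14, Nt5e −0.030, Tgfb2 0.029, Ptpn14 −0.056 and Gadd45a 0.058 for the difference of the responses. With factors from abundant genes the log2 fold changes of other sign were Axl 0.067 and Gadd45a 0.054 for genotype after sham, Tgfb2 0.017 for genotype after MCAo, Ankrd1 0.097 for MCAo in YT-iKO, Axl −0.021, Nt5e −0.25, Ptpn14 −0.062 and Fjx1 −0.22 for the difference of the responses. With the filter of CPM above 1 the log2 fold changes of other sign were Ankrd1 0.0010 for MCAo in YT-iKO, Nt5e −0.033 and Fjx1 −0.043 for the difference of the responses. With only the groups compared the log2 fold changes of other sign were Ankrd1 0.0076 for MCAo in YT-iKO. With RLE factors the log2 fold changes of other sign were Nt5e −0.0095 and Fjx1 −0.025 for the difference of the responses. With no filter the log2 fold changes of other sign were Nt5e −0.021 and Fjx1 −0.025 for the difference of the responses. With DESeq2 the log2 fold changes of other sign were Fjx1 −0.0058 for the difference of the responses. With 1 library left out, those that crossed 0 ran as follows: Ankrd1 −0.30 to 0.33, Tgfb2 −0.22 to 0.24, Fjx1 −0.14 to 0.54 and Gadd45a −0.22 to 0.027 for genotype after sham, Ankrd1 −0.85 to 0.21, Axl −0.27 to 0.20, Tgfb2 −0.23 to 0.0013 and Myof −0.20 to 0.29 for genotype after MCAo, Ankrd1 −0.084 to 0.53 for MCAo in CTRL, Ankrd1 −0.70 to 0.40 and Fjx1 −0.15 to 0.55 for MCAo in YT-iKO, Ankrd1 −0.98 to 0.12, Axl −0.16 to 0.32, Nt5e −0.21 to 0.34, Tgfb2 −0.35 to 0.089, Ptpn14 −0.095 to 0.22 and Fjx1 −0.28 to 0.43 for the difference of the responses.

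The replicate numbers were checked as pairs on the 1000 genes most variable within groups. Of 24 pairs of libraries with the same number, 15 had a correlation of deviations above 0.1 (median 0.2, against −0.12 for 72 pairs with different numbers), and 6 of 16 libraries correlated best with their own number, so the numbers were not read as pairs. The replicate block left 0 members called in every comparison, with 40, 34, 119 and 132 genes called in all for the first 4 comparisons. With factors from abundant genes it called 2 members for genotype after sham, Ptpn14 joining Crim1 (adjusted p = 0.096), against 0.392% of all genes. With tests limited to 9123 abundant genes on that scale, added after the data were seen, 2, 2, 4 and 4 of the 5 members among them were called, against 2.38%, 4.33%, 10% and 10.2% of those genes. Counts were fewest for Fjx1 and Ankrd1, 293 and 467 in all 16 libraries.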
